A study of Mus musculus with 2 samples.

Results

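Cxcl1, Cxcl2, Cxcl3, Cxcl5 and Ppbp encode CXC chemokines that attract neutrophils, and Cxcr2 encodes a receptor for them on neutrophils. These 6 genes were chosen by name, and each has a column in the deposited table of UMI (unique molecular identifier) counts, which holds 20198 genes. The study dissociated mouse corneas and sequenced single-cell RNA with the 10x Genomics method. The unwounded group (UW) is 1 library of the corneas of 4 normal mice, and the wounded group (W) is 1 library of the corneas of 4 mice taken 24 hours after the central corneal epithelium was scraped away. The mice were male and 6 to 8 weeks old, their strain is not given, and no transgene or deletion is named. Epithelium was parted from the rest with dispase II and trypsin, the remaining tissue was digested with collagenase A, and the cells of the 4 mice of a group were pooled. The deposited table of cells does not give the animal of a cell.

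Chemokines of this family carry the amino acids glutamate, leucine and arginine ahead of their CXC motif, bind to proteoglycans on cells and in matrix, and guide neutrophils along their gradient through Cxcr2, a receptor coupled to G proteins of the Gi type. Ligand genes such as Cxcl1 and Cxcl2 are known targets of NF-kappaB and of cytokines, among them interleukin 1, tumour necrosis factor and interleukin 17. In the cornea, which has no blood vessels of its own, neutrophils enter from vessels at the limbus after an injury to the epithelium.

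In the deposited table the UW library holds 16450 cells with 367166822 UMIs and a median of 22014 UMIs a cell. The W library holds 12417 cells there, with 289586482 UMIs and a median of 20290. The paper reports more cells after quality control for each of UW and W. The libraries share 52 cell barcodes, and without those cells 15 of 15 log2 ratios of the ligands in epithelium, cluster 0 and cluster 10 lay within the intervals given here. The deposited table assigns the cells to 17 clusters. Clusters 1 to 9 and 11 were joined as epithelium, with 13501 UW cells and 8507 W cells. The mix inside the epithelium differs between the libraries: the fullest clusters are 1 (2461 cells), 2 (1904) and 3 (1789) in UW, and 8 (1332), 5 (1201) and 9 (956) in W. Cluster 0, led by Kera, is stroma, with 2369 UW and 1719 W cells. Cluster 10, led by Penk and Myoc, scored for both the endothelial and the stromal list and is called by its number, with 565 UW and 632 W cells. Cluster 13 (1 UW and 710 W cells) has the neutrophil genes Stfa2l1, Acod1, Clec4d and Hdc among its 10 leading genes. Cluster 15 (no UW and 251 W cells) is led by Pf4, Lyz2 and Fcgr1 and matches the macrophage list. Cluster 16 (7 UW and 215 W cells) is led by T cell genes such as Cd3g and called the T cluster, although it also has 3 of 3 mast cell markers at a summed 405 CPM, 294 of it Cpa3, and Mcpt4 among its 10 leading genes. Cluster 14 (7 UW and 354 W cells), led by H2-Aa and Cd74, and cluster 17 (29 W cells) carry no cell type name here. Groups with fewer than 50 cells in a library are given as counts only and have no place in the orders of level below. The 29 cells of cluster 17, with 533042 UMIs in all, hold 72 UMIs of Cxcl1, 1703 of Cxcl2, 48 of Cxcl3, 70 of Cxcl5, 5 of Ppbp and 14 of Cxcr2.

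Levels are CPM, the UMIs of a gene per 1000000 UMIs over all cells of a cluster in 1 library, and differences are log2 ratios of CPM, W over UW. Each range in brackets is an exact 95% interval that covers counting error only. Each condition is 1 library, so no test between W and UW was possible, and cells of a library are not replicates. In the whole libraries, the UMIs of Cxcl1 numbered 3241 in UW and 19129 in W. Cxcl2 had 775 UMIs in UW and 90452 in W. Cxcl3 had 2 UMIs in UW and 15686 in W. All 3 were higher in W, and Cxcl3 was close to absent from the UW library. Cxcl5 had 928 UMIs in UW and 14772 in W. Ppbp, the gene of pro-platelet basic protein, had 124 in UW and 12743 in W. Cxcr2 had 36 in UW and 300 in W.

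Cxcl1 had UMIs in each of the 12 UW clusters with at least 50 cells. In UW it was highest in cluster 10 at 95.4 CPM (87.6 to 103.8), followed by clusters 9 (25.2), 8 (21.6) and 7 (21.1, with 546 of its 764 UMIs in 1 cell), whose intervals overlap from 1 to the next. Cluster 11 had 14.9 CPM, cluster 3 had 11.5, cluster 0 had 9.60, the last pair overlapping, and cluster 1 had 5.72. The lowest UW levels were 2.82 in cluster 5, 2.06 in cluster 4, 1.63 in cluster 2, each overlapping the next, and 0.804 in cluster 6. In W the order was another one. The macrophage cluster 15 came first at 460.5 CPM (435.3 to 486.8), then cluster 10 at 324 (312 to 337) and the stromal cluster 0 at 255 (249.7 to 260.7). The neutrophil cluster 13 and cluster 14, at 198 and 195 CPM, have overlapping intervals. Epithelial levels in W began at 68.2 CPM in cluster 3 and 31.8 in cluster 5. From cluster 9 (27.2) through the T cluster 16 (19.2) and clusters 8, 11, 4, 2, 6 and 7 down to cluster 1 (10.3), each neighbour in the order overlaps the next.

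The difference of Cxcl1 was largest in stroma. In cluster 0 it went from 273 UMIs (9.60 CPM) in UW to 8279 (255 CPM) in W, a log2 ratio of 4.73 (4.56 to 4.91). In cluster 10 the log2 ratio was 1.76 (1.63 to 1.90). In epithelium as a whole, 7.28 CPM in UW stood against 24.0 in W, a log2 ratio of 1.72 (1.65 to 1.79). Of the 12 clusters with at least 50 cells in each library, 8 had an interval above 0, from 0.85 in cluster 1 to 4.73 in cluster 0. Clusters 9 and 11 had intervals that hold 0. Clusters 7 and 8 went the other way, with log2 ratios of -0.96 (-1.24 to -0.69) and -0.25 (-0.45 to -0.05). With TMM or median-of-ratios scaling no cluster changed sign, and the interval of cluster 8 then holds 0. With TMM the interval of cluster 9 lies above 0.

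A single cell carries much of the unwounded Cxcl1 and Cxcl2 in cluster 7. This UW cell, with 26654 UMIs and 2116 genes, holds 546 UMIs of Cxcl1, which is 22.5% of the Cxcl1 of UW epithelium, and 288 UMIs of Cxcl2, which is 41.6% of the Cxcl2 there. It has 49 UMIs of the corneal keratin Krt12, 3 of S100a9 and none of Cxcl3, Cxcl5, Ppbp or Cxcr2. Without it the log2 ratio of Cxcl1 in cluster 7 is 0.85 in place of -0.96, that of Cxcl1 in epithelium is 2.09 in place of 1.72, and that of Cxcl2 in epithelium is 5.06 in place of 4.28. In UW cluster 7 Cxcl1 is then at 6.01 CPM (5.24 to 6.86) and Cxcl2 at 3.78 (3.17 to 4.47), and the log2 ratio of Cxcl2 there is 3.53 in place of 1.89. Leaving out this cell was chosen after seeing the data.

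Cxcl2 belonged mainly to the cells that are present in W and nearly missing from UW. Its level in W was 23503 CPM (23281 to 23725) in the neutrophil cluster, 8065 (7959 to 8173) in the macrophage cluster and 3193 (3136 to 3252) in cluster 14. Among clusters with at least 50 cells, cluster 10 followed far below at 119 CPM (111 to 126). Clusters 3 and 16 had 93.4 and 90.5 CPM with overlapping intervals, clusters 5 and 6 had 55.0 and 54.1, and the other clusters lay between 43.5 in cluster 7 and 14.9 in cluster 11, most overlapping the next. In UW the highest level was 11.7 CPM in cluster 7, where the cell described above lies. Cluster 10 had 4.73 CPM in UW and cluster 8 had 3.52, with overlapping intervals. All other UW clusters were at 1.45 CPM or lower, down to 0.324 in cluster 4, each overlapping the next.

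Cxcl2 was higher in W by at least 1 log2 unit in 12 of 12 comparable clusters, from 1.89 in cluster 7 to 7.12 in cluster 3. Of these 12, only cluster 10 had a W interval above that of the T cluster. The share of all genes higher by as much was counted only for epithelium, cluster 0 and cluster 10, and is given below. In epithelium Cxcl2 went from 2.08 to 40.4 CPM, a log2 ratio of 4.28 (4.17 to 4.39). In cluster 0 the log2 ratio was 5.02 (4.53 to 5.55) and in cluster 10 it was 4.65 (4.10 to 5.26). Neutrophil markers were higher in W too, from a summed 28.1 to 709 CPM in epithelium and from 2.99 to 92.8 in cluster 0. Without S100a8 and S100a9, left out after seeing the data, these sums went from 5.23 to 12.5 and from 0.984 to 5.33. With neutrophil RNA taken off by S100a8 and S100a9, as described below, nothing of Cxcl2 was left in W epithelium and cluster 0. By 5 other markers the log2 ratios were then 2.77 and 4.44. The part of neutrophil RNA was not tested. Among the few UW cells of the clusters found mainly in W, the 1 cell of cluster 13 has 7 UMIs of Cxcl2, the 7 cells of cluster 14 have 15, and the 7 cells of cluster 16 have 0.

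Cxcl3 was the member closest to an on and off pattern. Of its 2 UW UMIs, 1 is in cluster 5 and 1 in cluster 10. In W the macrophage cluster 15 was highest at 1639.8 CPM (1592 to 1689), followed by the neutrophil cluster at 996 (951 to 1043) and cluster 14 at 618 (593 to 644). In epithelium, cluster 3 had 98.9 CPM (94.8 to 103.1) and cluster 5 had 74.5 (71.7 to 77.3), well above the other epithelial clusters, which ran from 17.7 in cluster 6 to 5.07 in cluster 11, most overlapping the next. Cluster 10 (7.69) and cluster 0 (5.24) were among the lowest. Epithelium as a whole went from 1 UMI to 6834, a log2 ratio of 13.22 with an interval of 10.74 to 18.52. Cluster 0 had no UMI in UW and 170 in W, which is at least 49.7-fold higher when the sum of 0 is set to a floor of 3 UMIs. Cluster 10 had 1 UMI in UW and 64 in W, a log2 ratio of 5.46 (2.93 to 10.78).

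Cxcl5, in mouse also known as LIX, was the ligand of cluster 10. Its UW level there was 146.7 CPM (137 to 157), while no other UW cluster passed 0.598 CPM. Its W level in cluster 10 was 1160.5 CPM (1137 to 1184), a log2 ratio of 2.98 (2.88 to 3.09). Among clusters with at least 50 cells, the stromal cluster 0 came next in W at 112 CPM (108 to 115), from 17 UMIs in UW to 3621 in W, a log2 ratio of 7.54 (6.86 to 8.33). Cluster 14 had 45.9 CPM, of which a single cell holds 147 of the 169 UMIs. Cluster 13 had 24.0 CPM, and every other W cluster with at least 50 cells was between 9.62 (cluster 16) and 3.76 (cluster 1), with overlapping neighbours. In epithelium Cxcl5 went from 0.219 to 4.97 CPM, a log2 ratio of 4.50 (4.16 to 4.86).

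Ppbp encodes a precursor that is cleaved to the neutrophil attractant NAP-2 and is best known from platelets and megakaryocytes. In these libraries most of its UMIs lay in epithelium. It was highest in W in cluster 3 at 322 CPM (315 to 330), which compares with 0.336 CPM in the UW cells of that cluster, 11 UMIs against 7275 and a log2 ratio of 9.91 (9.07 to 10.91). Ppbp is among the 10 leading genes of cluster 3, so its height there describes that cluster and was not tested. Cluster 15 (74.2) and cluster 6 (63.5) followed with overlapping intervals, then cluster 5 (46.1). The other W levels ran from 21.0 in cluster 2 to 3.36 in cluster 0, most overlapping the next. In UW the order was headed by cluster 5 at 1.45 CPM (1.03 to 1.98), and no UMI was found in clusters 0, 9, 10 and 11.

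Ppbp in epithelium went from 124 UMIs to 12317, or 0.372 to 51.5 CPM, a log2 ratio of 7.11 (6.86 to 7.38). In cluster 0 it had no UMI in UW and 109 in W, at least 31.8-fold higher. In cluster 10 it had none in UW and 29 in W, at least 6.64-fold higher. Of the 7 platelet markers, 3 have a column (Itga2b, Gp1bb and Clec1b), while Gp9, Gp1ba, Tubb1 and Treml1 were not analysed. In cluster 3 the summed level of these 3 was 14.1 CPM in UW and 5.98 in W, most of it Itga2b in both libraries, with Clec1b at 0 in UW. Without Itga2b the others have 4 UMIs in UW and 7 in W, so the part of platelet RNA was not tested. Cxcl3, Cxcl5 and Ppbp were each higher in W by at least 1 log2 unit in 12 of 12 comparable clusters, with TMM and median-of-ratios scaling too. Of these ratios, 10 for Cxcl3 and 4 for Ppbp are bounds over a UW sum of 0. The share of all genes higher by as much was not counted in each cluster. The T cluster sets a level beside these ratios, at 17.3 CPM of Cxcl3, 9.62 of Cxcl5 and 6.74 of Ppbp in W. The W interval lies above that of the T cluster in 2 of the 12 clusters for Cxcl3 (3 and 5), 2 for Cxcl5 (0 and 10) and 6 for Ppbp (2, 3, 4, 5, 6 and 8). For Cxcl1 it does so in 4 (0, 3, 5 and 10) and for Cxcl2 in 1 (10). These values stand side by side and test no source of the RNA in any cluster.

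The receptor gene Cxcr2 was mainly a transcript of the neutrophil cluster. In W it had 119 CPM (104 to 136) in cluster 13, against 2.71 CPM (1.30 to 4.99) in cluster 14 and 0.962 CPM or less in every other cluster with 50 cells. Below cluster 13, each interval overlaps the next. Of its 300 W UMIs, 219 are in cluster 13, and the 29 cells of cluster 17 hold 14 more. In epithelium there were 29 UMIs in UW and 49 in W, a log2 ratio of 1.24 (0.54 to 1.95). In cluster 0 there were 4 in UW and 1 in W, a difference that was not detectable at this depth. The single UW cell of cluster 13 has 2 UMIs of Cxcr2.

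**Figure D1:**
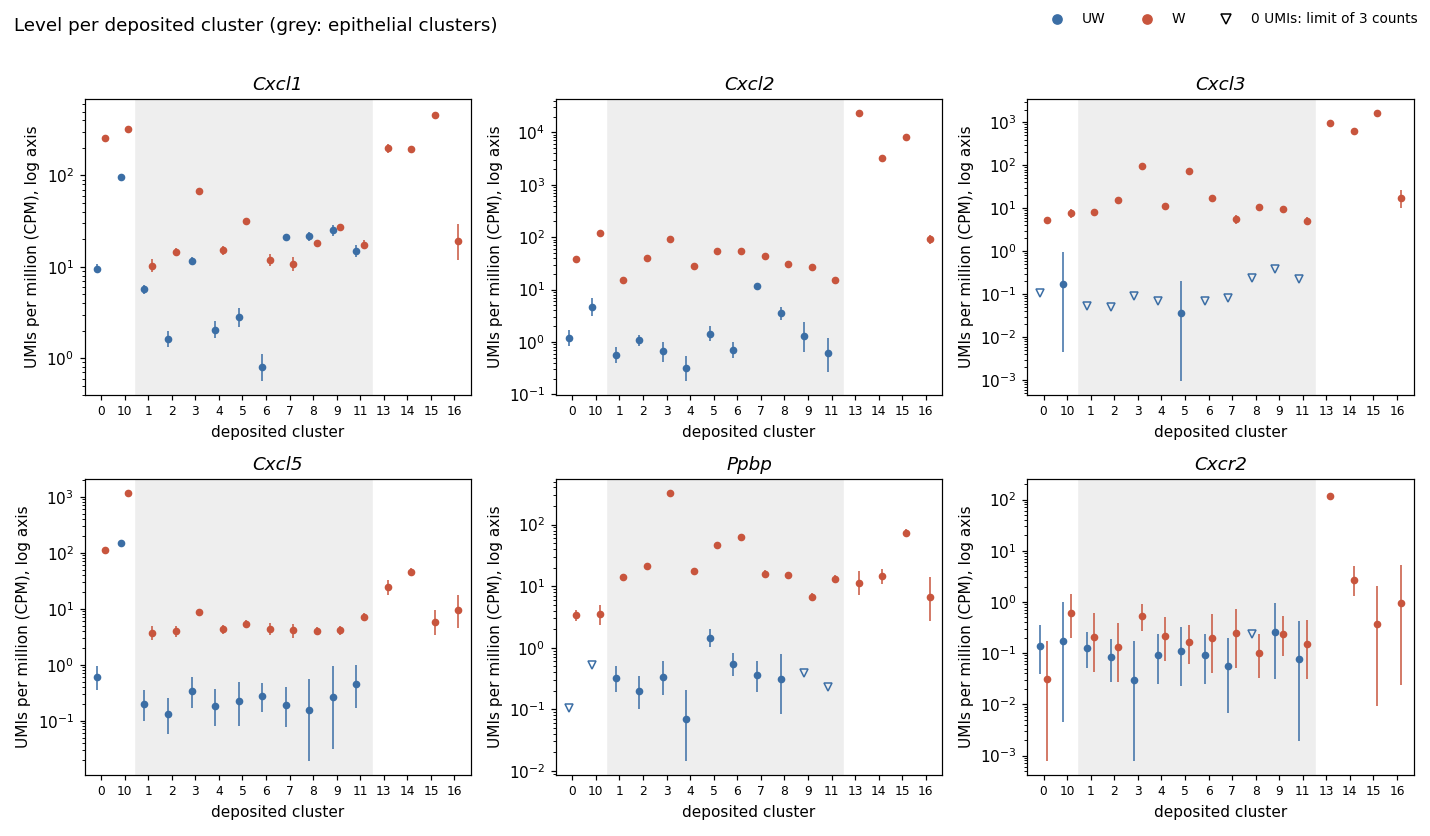
Levels of the 6 genes in CPM (log axis) by deposited cluster, for UW (blue) and W (red), as points with 95% intervals of counting error, open triangles marking the limit of 3 counts for a sum of 0, and groups with fewer than 50 cells not drawn. Cxcl5 stands highest in cluster 10 in both libraries, Ppbp stands highest in cluster 3 of W at 322 CPM, and Cxcr2 stands out in the neutrophil cluster 13 alone at 119 CPM.

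The share of cells with a UMI adds how widely a gene was spread. In W, 63.5% (61.2 to 65.8) of the cells of cluster 0 had Cxcl1, against 7.64% in UW. Thinned to 5000 UMIs a cell, with 11 shallower W cells left out, the W share was 41.0%. The T cluster 16, the nearest here to cells that should lack these genes, although mixed and not shown to lack them, had 8.84% at a median depth of 4411 UMIs against 17588 in cluster 0, and 3.46% when thinned to 2000 UMIs. Cxcl5 was found in 59.8% (55.9 to 63.7) of the W cells of cluster 10, or 51.8% thinned with 12 cells left out, and in 4.19% of the T cluster, 1.97% thinned. The median depth of cluster 10 in W is 12198 UMIs. In UW 21.6% of the cells of cluster 10 had Cxcl5. The stromal share of Cxcl1 and the cluster 10 share of Cxcl5 thus lie well above the share in the T cluster, thinned or not. No equal depth was compared, and the T cluster is the shallower each time.

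Ppbp was found in 34.9% (31.8 to 38.2) of the W cells of cluster 3, or 22.5% thinned with 20 cells left out, against 3.26% of the T cluster, 1.44% thinned. The median depth of cluster 3 in W is 23906 UMIs. Cxcl3 was found in 56.2% (49.8 to 62.4) of cluster 15, or 43.3% thinned to 2000 UMIs with no cell left out, against 6.51% of the T cluster, 2.70% thinned. The median depth of cluster 15 is 10144 UMIs.

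Cxcl2 was found in 97.3% (95.9 to 98.4) of the neutrophil cluster and Cxcr2 in 24.6% (21.5 to 27.99), at a median depth of 2509.5 UMIs. Thinned to 2000 UMIs with 126 cells left out, these shares were 97.7% and 22.4%. In the T cluster 23.7% of cells had Cxcl2, or 12.8% thinned, and 0.465% had Cxcr2. In W epithelium 35.1% of cells had Cxcl2 at a median depth of 25553 UMIs, and 9.97% when thinned to 5000 UMIs with 176 cells left out. The epithelial share of Cxcl2, once thinned, is thus below that of the T cluster, while the neutrophil share is far above it.

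Part of the UMIs was held by few cells. In W the 1% of cells with the most UMIs of a gene, 125 cells, held 31.1% of the Cxcl1, 38.8% of the Cxcl2 and 58.6% of the Cxcl3. They held 58.4% of the Cxcl5 and 67.9% of the Ppbp. The richest W cells had 183 UMIs of Cxcl1, 916 of Cxcl2, 371 of Cxcl3, 218 of Cxcl5 and 374 of Ppbp. For Cxcr2 the highest count in a cell was 4. Without the 1% of the cells of a group with the most UMIs of the gene in each library, the log2 ratios in epithelium were 2.52 for Cxcl1, 9.04 for Cxcl2 and at least 10.25, 8.52 and 11.06 for Cxcl3, Cxcl5 and Ppbp. In cluster 0 they were then at least 8.14 for Cxcl2 and at least 9.42 for Cxcl5. This setting keeps 880 of 2423 UW UMIs of Cxcl1 in epithelium and 12 of 692 of Cxcl2, and none of Cxcl3, Cxcl5 and Ppbp. In cluster 0 it keeps none of the UW UMIs of Cxcl2 and Cxcl5. Where it keeps few or none of a UW sum well above the floor of 3 UMIs, a higher ratio follows by construction. Cxcl3 in epithelium, with 1 UW UMI, fell instead, from 13.22 to at least 10.25. UW is then set to that floor and W keeps 2614 of 6834 UMIs.

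The clusters that supplied the UMIs differ by gene, since a source depends on how many cells a cluster has as well as on its level. In W the stromal cluster 0 held 43.3% of the Cxcl1 UMIs, cluster 10 held 14.1% and the macrophage cluster, though highest in CPM, held 6.52%. Epithelium held 29.9% of Cxcl1 in W and 74.8% in UW. The neutrophil cluster held 47.7% of the Cxcl2, cluster 15 held 24.2%, cluster 14 held 13.01% and epithelium held 10.7%. Cxcl3 was split between epithelium (43.6%, mainly clusters 5 and 3 with 17.2% and 14.2%), cluster 15 (28.3%), cluster 14 (14.5%) and the neutrophil cluster (11.7%). Cxcl5 lay in cluster 10 (65.4%) and cluster 0 (24.5%) in W, and 90.3% of it lay in cluster 10 in UW. Epithelium held 96.7% of the Ppbp in W, with 57.1% in cluster 3 alone, and all 124 UMIs in UW. Cluster 13 held 73.0% of the Cxcr2 in W and epithelium held 16.3%.

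**Figure D2:**
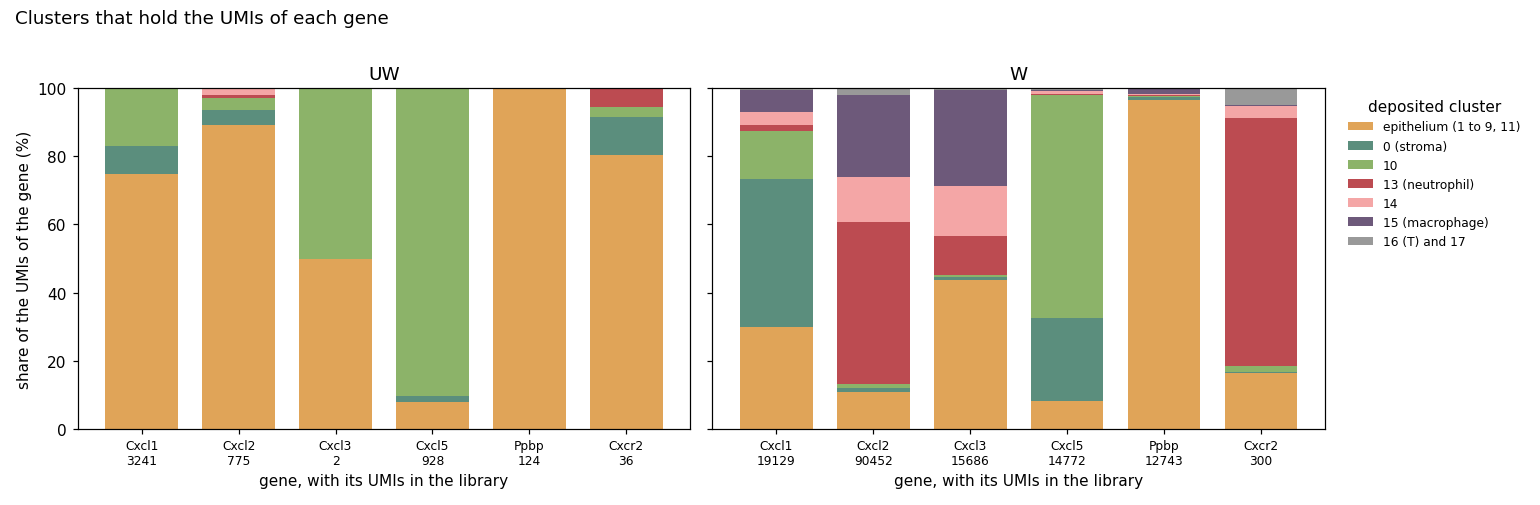
Share in percent of the UMIs of each gene that lies in each deposited cluster, stacked to 100%, for UW (left) and W (right), with the number of UMIs of the gene in the library under its name. In W the neutrophil cluster holds 47.7% of the Cxcl2 and 73.0% of the Cxcr2, cluster 10 holds 65.4% of the Cxcl5, and epithelium holds 96.7% of the Ppbp.

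Neutrophil markers were higher in W in other clusters as well. The 10 neutrophil markers summed to 28.1 CPM in UW epithelium (8 of 10 with a UMI, Retnlg and Trem1 at 0) and to 709 CPM in W epithelium (10 of 10), with S100a9 the most abundant in both, at 541 CPM in W. Without S100a8 and S100a9, a choice made after seeing the data, the sum was 5.23 CPM in UW and 12.5 in W. S100a9 per S100a8 was 1.47 in the neutrophil cluster, and 3.46 in W epithelium, where it ran from 0.969 in cluster 9, 1.56 in cluster 8, 1.71 in cluster 11 and 2.10 in cluster 3 to 11.3, 11.8 and 12.1 in clusters 6, 7 and 2. UW epithelium had 7345 UMIs of S100a9. How much of the sum is RNA of neutrophils was not tested. In cluster 0 the sum was 2.99 CPM in UW (5 of 10, with Csf3r, Retnlg, Stfa2l1, Trem1 and Acod1 at 0, S100a9 the most abundant) and 92.8 in W (10 of 10, S100a8 the most abundant). In cluster 10 it was 3.50 CPM in UW (4 of 10, with Csf3r, Retnlg, Clec4d, Stfa2l1, Trem1 and Acod1 at 0) and 167 in W (9 of 10, Retnlg at 0), S100a9 leading in both. The neutrophil cluster itself had 39687 CPM. The 7 macrophage markers summed to 106 CPM in UW epithelium and 72.6 in W, with Itgam the most abundant at 83.1 and 28.6. Without Itgam, again chosen after seeing the data, the sum was 22.8 in UW and 44.0 in W. By cluster the sum of all 7 was higher in W in 8 of the 10 epithelial clusters and lower in clusters 5 (78.0 to 66.8) and 7 (532 to 341). It went from 18.0 to 28.1 in cluster 0 and from 22.4 to 49.4 in cluster 10 with Lyz2 the most abundant. In cluster 15 they summed to 20958 CPM. Ccr2 was at 0 in UW cluster 0, and Fcgr1, Csf1r and Ccr2 were at 0 in UW cluster 10. The part of macrophage RNA in the ligand values of these groups was not tested.

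Free RNA of 1 source would keep its genes in 1 ratio, so the UMIs of each gene were set beside those of 5 neutrophil markers with fewer than 10 UMIs in UW outside the immune clusters (Csf3r, Retnlg, Clec4d, Trem1 and Acod1). These markers were chosen after the data were seen, because S100a8 and S100a9, the pair chosen earlier, also have UMIs in UW epithelium. Relative to the ratio in the neutrophil cluster, Cxcl2 stood at 0.996 in cluster 1, 1.08 in cluster 3, 1.48 in epithelium, 1.75 in cluster 10 and 2.28 in cluster 0. With S100a8 and S100a9 as the measure it stood at 0.0828 in epithelium, 0.632 in cluster 0 and 1.15 in cluster 10. The Cxcl2 of epithelium thus ranged, by the markers used, from below the amount that neutrophil RNA would carry to 1.48 times it. With the counts of that amount taken off by the 5 markers, its log2 ratio was 2.77 in epithelium, 4.44 in cluster 0 and 3.43 in cluster 10. With S100a8 and S100a9, nothing was left of it in W epithelium and cluster 0, and the log2 ratio was 2.23 in cluster 10. The part of neutrophil RNA in the Cxcl2 of these clusters was not tested.

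The other ligands differed in how far they stood from the neutrophil ratio, and the values depend on the markers used. Cxcl1 in epithelium was at 104 times the ratio of the neutrophil cluster by the 5 markers and at 5.83 times by S100a8 and S100a9, and Ppbp was at 3874 and 217 times. Cxcl5 in cluster 0 was at 6437 and 1787 times. Cxcl3 by the 5 markers was at 24.7 times in epithelium, 7.27 in cluster 0 and 2.68 in cluster 10, and by S100a8 and S100a9 at 1.38, 2.02 and 1.76 times. With the amount given by S100a8 and S100a9 taken off, the log2 ratio of Cxcl3 was at least 9.78 in epithelium and at least 2.67 in cluster 10. These bounds put UW at the floor of 3 UMIs where the values given above use its 1 UMI, so part of their fall comes from the floor. The receptor Cxcr2, with 49 UMIs in W epithelium, was there at 1.48 times by the 5 markers and at 0.0828 times by S100a8 and S100a9. The part of neutrophil RNA in the Cxcl3 and Cxcr2 of these groups was not tested.

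Over the 10 pairs of ligands in the 16 W clusters with at least 50 cells, 126 of 160 pairs were found together in more cells than their shares alone give and 34 in fewer. Pairs of other genes were not counted, so these numbers do not set the ligands apart from other genes. In the 885 W cells of cluster 3, 108 cells had both Cxcl3 and Ppbp, where the shares of the 2 genes give 61.1. Cxcl1 and Ppbp were together in 144 cells where the shares give 99.2. In cluster 5, Cxcl3 and Ppbp were together in 100 cells where the shares give 61.7. Depth moves with this, as cells of cluster 3 with a UMI of Cxcl3 had a median of 28413 UMIs against 23114 in those without, and its part was not tested. In cluster 10, Cxcl1 and Cxcl5 were together in 246 cells where the shares give 239, and Cxcl1 and Cxcl2 in 164 against 144. Cxcl1 and Cxcl2 were together in 404 cells of cluster 0 against 356. Cxcl2 and Cxcl3 were together in 99 cells of cluster 14 against 73.7, and Cxcl1 and Cxcl3 in 61 cells of cluster 15 against 45.5. Among the pairs below, Cxcl1 and Cxcl5 were together in 11 cells of cluster 2 against 18.5, and Cxcl1 and Ppbp in 52 cells of cluster 0 against 56.5. In the neutrophil cluster, Cxcl3 and Cxcr2 shared 49 cells where the shares give 67.0.

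Cells with at least 10 UMIs of a ligand, a class chosen after the values were seen, show what goes with a high count. In cluster 3 of W, 116 cells reached that count of Ppbp, with a median depth of 33900.5 UMIs against 23022 in the other 769. Their level of Cxcl3 was 479 CPM against 15.9, of Cxcl1 187 against 42.1 and of Cxcl5 32.9 against 3.29. Il1a, the gene of the alarmin interleukin 1 alpha, was at 312 against 113 CPM in these cells. Csf3, which encodes the granulocyte growth factor G-CSF, was at 18.5 against 4.43. Other listed genes were lower in them, such as Tnfrsf1a (86.8 against 151), Nfkbia (555 against 712) and Nfkbiz (194 against 254). Cxcl2 was at 167 against 77.2. Taken as a pool, the Ppbp-rich cells of cluster 3 thus had higher levels of the other ligands. How many of these cells held each ligand was not counted.

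Csf3 was also higher in the ligand-rich cells of clusters 0, 5, 10 and 13, while clusters 14 and 15 were not split in this way. In cluster 5 it was at 24.4 CPM in 67 cells with at least 10 UMIs of Cxcl3 against 4.03 in the rest. The median depths there were 37089 and 27477 UMIs. In cluster 0, 238 cells with at least 10 UMIs of Cxcl1 had 38.3 CPM of Csf3 against 6.64 in the rest, at median depths of 21542.5 and 17089 UMIs. In cluster 10, 211 cells with at least 10 UMIs of Cxcl5 had 142 CPM of Cxcl12, a chemokine for Cxcr4, against 46.6, at median depths of 12030.0 and 12232 UMIs. The same cells had 35.7 against 13.8 CPM of Il17ra, a subunit of the interleukin 17 receptor, and 18.4 against 5.89 of Csf3. In cluster 13, 584 cells with at least 10 UMIs of Cxcl2 had 3036 CPM of Il1b against 1067 in the other 126, at median depths of 2566.5 and 2263.5 UMIs. Csf3 was at 54.6 against 3.58 CPM in them (85 UMIs against 1), and Cxcr4, which holds neutrophils in the bone marrow, at 332 against 609. Nfkbia and Nfkbiz, lower in the Ppbp-rich cells of cluster 3, were higher in the ligand-rich cells of clusters 0, 5, 10 and 13. Nfkbia was at 1302 against 1230 CPM in cluster 0 and 1194 against 863 in cluster 5. In clusters 10 and 13 it was at 1408 against 1000 and 3756 against 1199. Tnfrsf1a was lower in those of clusters 0, 5 and 13 and higher in those of cluster 10.

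Other genes of neutrophil recruitment were read against the count of all genes. A gene counts as higher or lower when its log2 ratio is at least 1 in size, among genes with at least 20 UMIs in the 2 sums together. In epithelium 21.8% of 16439 genes were higher in W and 8.77% were lower. In cluster 0, 7.34% of 14245 genes were higher and 9.67% were lower. In cluster 10, 4.97% of 12441 were higher and 6.63% were lower. All 5 ligands were higher in each of the 3 groups, with median log2 ratios of 4.50 in epithelium, 5.02 in cluster 0 and 2.98 in cluster 10, beside medians over all genes of 0.22, -0.15 and -0.09. Cxcr2 was counted as higher in epithelium, on the low counts given above, and had fewer than 20 UMIs in cluster 0 and in cluster 10.

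Of the 40 other genes listed, 39 have a column, and Cxcl15 was not analysed. In epithelium 19 of 35 genes with enough UMIs were higher and 3 were lower, with a median of 1.52. In cluster 0, 14 of 28 were higher and 1 was lower, with a median of 0.84. In cluster 10, 13 of 24 were higher and 0 were lower, with a median of 1.06. Scaling moved these splits. TMM factors shifted the log2 ratios by -0.22 in epithelium, 0.14 in cluster 0 and 0.11 in cluster 10, and median-of-ratios factors by -0.23, 0.17 and 0.12. The share of higher among all genes counted as higher or lower was 71.3% in epithelium, 57.9% with TMM and 56.9% with median of ratios. It was 43.1%, 54.2% and 56.0% in cluster 0, and 42.8%, 53.0% and 53.6% in cluster 10. The list counts with either factor were 18 higher and 4 lower in epithelium, 14 and 1 in cluster 0, and 13 and 0 in cluster 10.

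Among the cytokines upstream of the ligands, Il1b had a log2 ratio of 3.64 in epithelium, from 154 UMIs in UW to 1382 in W. It is a gene of the neutrophil cluster as well, with 2736 CPM there, and had 749 CPM in cluster 14 and 665 in cluster 15. The part of RNA from these clusters in the Il1b of epithelium was not tested. Csf3 was higher in all 3 groups, with log2 ratios of 1.84 in epithelium, 4.26 in cluster 0 and 3.25 in cluster 10. Tnf and Il6 were lower in epithelium, at -1.25 and -1.26, and Il6 was higher in cluster 10 at 1.42. The interleukin 1 receptor gene Il1r1 was at 1.94 in cluster 0 and 1.53 in cluster 10, beside 0.13 in epithelium, which falls below 0 with either scaling factor. Il17ra was at 1.71 in cluster 0 and 1.35 in cluster 10, beside 0.56 in epithelium. In W the ligand gene Il17a was highest in the T cluster, at 129.9 CPM.

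The NF-kappaB feedback genes Tnfaip3 and Nfkbia are commonly read as targets of that pathway. Tnfaip3 had log2 ratios of 2.37 in epithelium, 2.45 in cluster 0 and 2.95 in cluster 10. Nfkbia had 0.88, 1.65 and 1.55. Zfp36, whose protein speeds the decay of chemokine transcripts, had -0.89, -1.70 and -0.67, which counts as lower in cluster 0, and with either scaling factor in epithelium too. The adhesion gene Icam1, whose protein is bound by leukocyte integrins, was at 1.57, 1.29 and 0.67. Several genes counted as higher in epithelium are neutrophil or leukocyte genes with few UMIs, such as Csf3r with 7 in UW and 107 in W, and Itgb2 with 4 and 138. Itgam, the partner of Itgb2, was lower in epithelium at -1.54, and it had 466 CPM in cluster 7 of UW.

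In the clusters found mainly in W, with few or no UW cells, the list is given as levels in W. The neutrophil cluster had 409 CPM of the G-CSF receptor gene Csf3r, 374 of Cxcr4 and 8.17 of Cxcr1, a relative of Cxcr2. C5ar1, the receptor gene for complement C5a, was at 392 CPM in cluster 13 and 446 in cluster 15. Pf4, the neighbour of Ppbp on the chromosome, had 3237 CPM in cluster 15, where Ppbp had 74.2. In cluster 3, where Ppbp was highest in W, the cells with at least 10 UMIs of Ppbp had 3.46 CPM of Pf4. The cluster with the highest W level of Ppbp, 3, was thus low in Pf4, while cluster 15 was second for Ppbp.

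The genes with the most similar pattern were found by Pearson correlation of log2(CPM + 1) over the 28 groups of cluster and library with at least 50 cells, among 15055 genes. The groups share their libraries and many cell types, and no p is given. For Cxcl1 the closest were Dram1 (r = 0.875), Ftl1-ps1 (0.867) and Thbs1 (0.857). For Cxcl2 they were Ccl3 (0.960), Tyrobp (0.959) and Cxcl3 (0.954). For Cxcl3 they were Cxcl2 (0.954), Il1b (0.933) and Tyrobp (0.933). Ccl3 and Il1b are inflammatory mediators of myeloid cells, and Tyrobp is an adaptor of myeloid receptors. For Cxcl5 the closest were Chil1 (0.962), Tnc (0.951), which encodes tenascin C of the matrix, and Mmp3 (0.933), a matrix metalloproteinase. For Ppbp they were Dynap (0.918), Ccdc71l (0.887) and Ifi205 (0.877), and Dynap also leads cluster 3. For Cxcr2 they were AC110211.1 (0.993), Prok2 (0.992) and Gm20406 (0.988). By Spearman rho of CPM other genes came first for most members, such as Nfkbia (0.860) among the closest 3 of Cxcl1, while Mmp3 stayed among the closest of Cxcl5 (0.926) and Ifi205 and Ccdc71l among those of Ppbp (0.904 and 0.896).

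Between members the correlations ranged widely. Cxcl2 and Cxcl3 had r = 0.954, Cxcl3 and Ppbp 0.802, and Cxcl1 and Cxcl5 0.774. The lowest was that of Ppbp and Cxcr2, at 0.183.

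The 5 ligand genes are neighbours. In RefSeq on GRCm38.p6 they lie within 146641 bases of chromosome 5, all on the plus strand, in the order Cxcl5 (chr5:90759298-90761625), Ppbp (chr5:90768518-90770063), Pf4 (chr5:90772435-90773383), Cxcl3 (chr5:90786101-90788093), Cxcl1 (chr5:90891245-90893121) and Cxcl2 (chr5:90903899-90905938). With Cxcl15, the annotation has 7 coding genes in this span. Cxcr2 lies apart, at chr1:74153994-74161246. Transcripts of Cxcl2 and Cxcl3 share sequence: of the 2159 windows of 50 bases in the Cxcl2 transcripts, 126 also occur in another gene, and that gene is Cxcl3. For Cxcl1 and Ppbp no such window occurs in another gene. Of the windows of Cxcl3, Cxcl5 and Cxcr2, 152 of 3587, 13 of 1876 and 122 of 3039 occur in other genes, and the effect on their counts was not tested.

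**Figure D3:**
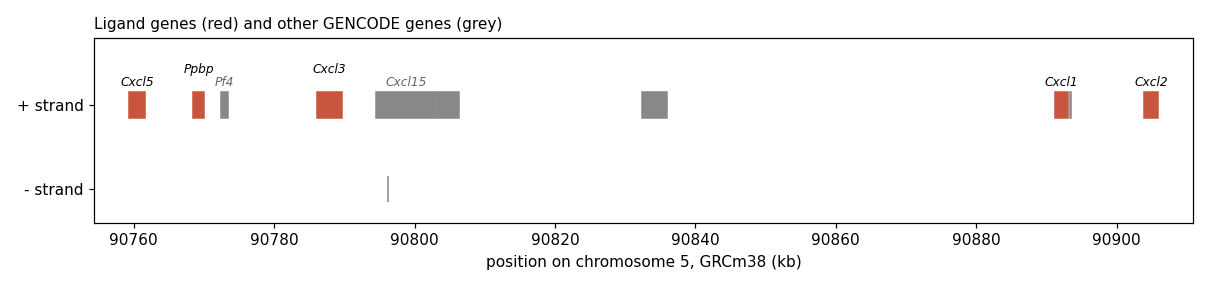
Map of the ligand genes on mouse chromosome 5 (GRCm38.p6, position in kb), with each gene of GENCODE M21 as a bar from start to end by strand, ligand genes in red and others in grey. The 5 ligand genes and their neighbours Pf4 and Cxcl15 lie on the plus strand of one stretch.

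Promoters are shown because the ligands were higher together in W while their leading clusters differ. RefSeq promoters were found for 5 of the 6 members, all but Cxcl5, among 32851 promoters of 250 bases before to 50 after the start. The letters GGANTTTCC, which many kappaB sites contain, were searched on both strands and are in 1.25% of all promoters. They are in those of Cxcl1, Cxcl2 and Cxcl3, each time as GGAATTTCC on the plus strand, with the first base at -70, -96 and -72 from the start. In the 120 bases before the start alone, 0.496% of all promoters have them. TATAAA is in 13.6% of promoters and in those of Cxcl3 (at -30) and Ppbp (at -30 and -8). TGANTCA, of the AP-1 type, is in 7.81% and, among members, in that of Ppbp (at -204). A match of letters is a description and not a measured site. The 120 bases before the start follow for Cxcl1 (chr5:90891125-90891244), Cxcl2 (chr5:90903779-90903898), Cxcl3 (chr5:90785981-90786100) and Ppbp (chr5:90768398-90768517), plus strand, with the matches in capitals.
Cxcl1: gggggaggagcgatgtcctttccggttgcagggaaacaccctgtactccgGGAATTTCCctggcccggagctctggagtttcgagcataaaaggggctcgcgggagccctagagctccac
Cxcl2: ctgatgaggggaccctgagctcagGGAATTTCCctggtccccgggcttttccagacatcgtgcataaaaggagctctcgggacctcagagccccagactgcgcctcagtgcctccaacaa
Cxcl3: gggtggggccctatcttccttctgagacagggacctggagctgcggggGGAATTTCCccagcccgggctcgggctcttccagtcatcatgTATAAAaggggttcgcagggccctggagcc
Ppbp: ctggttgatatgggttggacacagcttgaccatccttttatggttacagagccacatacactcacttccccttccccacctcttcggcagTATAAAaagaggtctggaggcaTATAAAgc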

How the data were processed

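The authors made single-cell libraries of UW and W corneas and counted UMIs with Cell Ranger 3.1.0. The deposited values are UMI counts per gene and cell, not normalised, and the deposited table of cells, whose values are other properties of each cell, gives library, depth and cluster. The labels name genome build mm9 and kit v3, whereas the study's methods name mm10 and V2; positions here are from RefSeq on GRCm38.p6 and GENCODE M21. The members and lists were chosen with earlier results of these data known. Counts were summed per cluster and library with Python 3.11.15, pandas 2.3.3 and numpy 2.4.6, with exact intervals (Poisson for levels, Clopper-Pearson for shares, conditional binomial for ratios) from scipy 1.17.1. A sum of 0 was set to 3. The authors name DoubletFinder for doublets, and the deposited table still marks 305 UW and 164 W cells as doublets of a first run. These cells were kept, and without them 15 of 15 ligand ratios in epithelium, cluster 0 and cluster 10 lay within their intervals. Alternative scalings used edgeR 4.0.16 and DESeq2 1.42.0 in R 4.3.3. Figures used matplotlib 3.10.9. Named genes are the members, the listed genes, and the 3 genes most like each member among those with at least 100 UMIs. Clusters were named from marker scores and leading genes with values seen: clusters 1, 3, 5 and 11 scored slightly higher for melanocyte genes than for epithelial ones, cluster 7 scored above 0 for no list, and cluster 13 scored slightly higher for erythrocyte genes than for neutrophil ones. The calculations were tested on simulated data.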

Additional observations from a re-analysis of the deposited data

Results flagged for a closer look

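Cxcl1 had opposite directions in clusters of the same tissue. Its log2 ratio, W over UW, was -0.96 in cluster 7 (764 UMIs in UW, 129 in W) and -0.25 in cluster 8 (276 UMIs in UW, 883 in W), while its intervals lay above 0 in 8 other clusters. The difference between the clusters was not tested. In cluster 7, 1 UW cell holds 546 of the UMIs, and without it the log2 ratio is 0.85. Over all settings the log2 ratio in cluster 7 ran from -1.89, with neutrophil RNA taken off by S100a8 and S100a9, to 1.90, without the 1% of cells with most UMIs of the gene.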

How the results depend on the processing

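For the 5 ligands in epithelium, cluster 0 and cluster 10, each of the 132 log2 ratios with a value was above 1 and none reversed. Of these, 117 do not come from leaving out the 1% of cells with most UMIs of the gene, which takes away most or all UW UMIs of several ligands. With neutrophil RNA taken off by S100a8 and S100a9, Cxcl2 in epithelium and cluster 0 had no value, since nothing of it was left in W. Of 66 planned ones 51 lay within the interval of the value given, and of 66 chosen after seeing the data 54 did. Those outside it follow, and where the setting does not show it the cause was not tested. With TMM, Cxcl1 and Cxcl2 in epithelium were 1.503 and 4.06, and Cxcl5 in cluster 10 was 3.09; with median of ratios these were 1.49, 4.05 and 3.101. With the mean of CPM per cell, Cxcl1 in epithelium was 1.58 and Cxcl5 in cluster 10 was 2.72. With a stricter cell filter (1000 genes, 5% mitochondrial UMIs), Cxcl5 in cluster 10 was 2.82. Without the 1% of cells with most UMIs of the gene, epithelium had 2.52 for Cxcl1, 9.04 for Cxcl2 and at least 10.25, 8.52 and 11.06 for Cxcl3, Cxcl5 and Ppbp. In that setting cluster 0 had 5.13 for Cxcl1 and at least 8.14 and 9.42 for Cxcl2 and Cxcl5, cluster 10 had 3.33 for Cxcl5, and Cxcl1 in cluster 7 was reversed at 1.90. With neutrophil RNA taken off by S100a8 and S100a9, epithelium had 1.48 for Cxcl1 and at least 9.78 for Cxcl3, and cluster 10 had 2.23 for Cxcl2 and at least 2.67 for Cxcl3, where the floor of 3 UMIs in UW is part of the fall. With the 5 markers chosen after seeing the data, Cxcl2 was 2.77 in epithelium, 4.44 in cluster 0 and 3.43 in cluster 10. Without the UW cell with the most Cxcl1, also chosen after seeing the data, Cxcl1 was 2.09 and Cxcl2 5.06 in epithelium, and in cluster 7 Cxcl1 was reversed at 0.85 and Cxcl2 was 3.53. Settings for cluster 10 and for clusters 7 and 8 were added after seeing the data. Without the barcodes found in both libraries, 15 of 15 ligand ratios lay within their intervals. With either scaling, Cxcl2, Cxcl3, Cxcl5 and Ppbp were higher by at least 1 in 12 of 12 clusters.

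Thinning lowered the share of cells with Cxcl1 in cluster 0 to 41.0%, Ppbp in cluster 3 to 22.5%, Cxcl5 in cluster 10 to 51.8% and Cxcl3 in cluster 15 to 43.3%. Over 180 shares, 44 lay within their interval after thinning. Relative to the neutrophil cluster, Cxcl2 per neutrophil UMI with the other markers of the list was 0.838 in epithelium, 1.89 in cluster 0 and 1.54 in cluster 10, and with the 5 markers 1.48, 2.28 and 1.75. With no minimum count, 1612 genes were higher in cluster 0, and 1058 were higher and 1426 lower in cluster 10. No value came from the mean of CPM per cell for Cxcl3 and Ppbp in cluster 0 and Ppbp in cluster 10. No paired analysis was possible because each condition is 1 library. At this depth, Cxcr2 in W epithelium rests on 49 UMIs.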
